A study of Mus musculus with 37 samples.

Results

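Genes of glycerolipid synthesis, lipid droplets and lipoproteins were described over 4 mouse genotypes, in liver and in cortex, at the age of 10 months. The set holds 39 genes, chosen by function and read by symbol from the 55536 genes of each deposited count table. All 39 were found in both tables. Per the labels, the genotypes were TMEM106B-/- TDP-43Q331K (called the combined genotype), TMEM106B-/-, TDP-43Q331K and WT. TMEM106B is a membrane protein of lysosomes, and TDP-43, encoded by Tardbp, is an RNA-binding protein in which Q331K is a disease-linked change, carried here as a knock-in allele. Liver had 4 libraries per genotype. Cortex had 5 libraries each of the combined genotype, TMEM106B-/- and WT, and 6 of TDP-43Q331K. The series asks which expression changes TMEM106B deficiency and TDP-43Q331K cause in brain and liver, and its title names lipid metabolism and obesity. Not given in the sources used here were zygosity, strain, sex, feeding state and the design of the TMEM106B allele. The labels do not say that each library came from its own animal, so p-values measure the spread between these libraries.

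Cells make triacylglycerol by adding acyl chains to glycerol 3-phosphate, removing the phosphate and adding a last acyl chain. Triacylglycerol is stored in droplets coated by perilipins and CIDE proteins, and is taken apart again by the lipases PNPLA2, LIPE and MGLL in turn. Hepatocytes also load triacylglycerol onto apolipoprotein B for secretion as very low density lipoprotein, while lipases bound to vessel walls release fatty acids from the circulating particles and ANGPTL proteins restrain them. Cortex makes glycerolipids for membranes and uses MGLL to break down the endocannabinoid 2-arachidonoylglycerol, but it does not secrete apolipoprotein B particles.

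Several facts of the libraries bear on all results. Tmem106b RNA was not lower in libraries labelled TMEM106B-/-. In liver it stood at 135 ± 9.15 CPM in the combined genotype, 115 ± 9.32 CPM in TMEM106B-/-, 91.9 ± 21.3 CPM in TDP-43Q331K and 96.5 ± 16.3 CPM in WT (SD, n = 4 each). In cortex it stood at 199.99 ± 13.5 CPM in the combined genotype, 184 ± 6.66 CPM in TMEM106B-/-, 181 ± 6.79 CPM in TDP-43Q331K and 188 ± 4.69 CPM in WT, with n = 6 for TDP-43Q331K and n = 5 otherwise. In liver, Tmem106b passed with edgeR as higher in the combined genotype than in TDP-43Q331K (log2 fold change 0.56 ± 0.15, adjusted p = 0.0497). Against WT the combined genotype did not pass (0.48 ± 0.15, adjusted p = 0.0625). Genotypes therefore rest on the labels. Group means of Tardbp lay between 106.04 and 116 CPM in liver and between 151 and 178 CPM in cortex. Hepatocyte markers summed to 105350 to 142820 CPM in liver and to at most 15.8 CPM in cortex, and neuronal markers to 7898 to 9524 CPM in cortex and to at most 12.04 CPM in liver. In liver, acute phase transcripts were highest in replicate 1 of the combined genotype (19433 CPM summed over 11 genes), replicate 4 of TMEM106B-/- (21635 CPM) and replicate 2 of WT (21495 CPM). In cortex, summed oligodendrocyte and meninges markers varied within genotypes, and cortices were left out in 3 ways, all chosen after seeing the data. The first is a set carried over from earlier work on these data with no fixed rule (replicate 2 of the combined genotype, replicate 5 of TMEM106B-/-, replicate 3 of TDP-43Q331K and replicate 1 of WT). In it, replicate 3 of TDP-43Q331K lay within its group in meninges markers. In oligodendrocyte markers it was the highest of its group (3107.5 CPM), beside 3106.6 CPM in replicate 5. The other ways left out the library of each genotype farthest from its group median, in oligodendrocyte markers (replicates 5, 1, 6 and 1 in the same order of genotypes) or in meninges and choroid plexus markers (replicates 2, 5, 4 and 1). Members' calls that these livers or cortices decide are given with and without them.

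Promoters of 4 genes are shown because the members with the largest differences in liver lie among them. Each run is the 300 bases from 250 before to 50 after the RefSeq start of the gene on GRCm38.p6, written 5′ to 3′ on the gene's strand. The RefSeq start of Plin3 lies 2.36 kb, and that of Apoa4 148 bases, inside the gene as GENCODE draws it, so these windows surround an internal start of the GENCODE gene. Capitals mark matches to an E-box (CACGTG, a site of basic helix-loop-helix factors) or a CCAAT box, which reads ATTGG when it lies on the other strand.
Pnpla5 (chr15:84123126-84123425, minus strand): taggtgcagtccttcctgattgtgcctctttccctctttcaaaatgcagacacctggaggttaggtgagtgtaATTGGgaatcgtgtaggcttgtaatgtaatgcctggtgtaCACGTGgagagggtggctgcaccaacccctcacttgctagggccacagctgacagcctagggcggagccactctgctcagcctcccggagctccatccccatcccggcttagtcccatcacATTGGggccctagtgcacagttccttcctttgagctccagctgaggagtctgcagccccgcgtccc
Pnpla3 (chr15:84167566-84167865, plus strand): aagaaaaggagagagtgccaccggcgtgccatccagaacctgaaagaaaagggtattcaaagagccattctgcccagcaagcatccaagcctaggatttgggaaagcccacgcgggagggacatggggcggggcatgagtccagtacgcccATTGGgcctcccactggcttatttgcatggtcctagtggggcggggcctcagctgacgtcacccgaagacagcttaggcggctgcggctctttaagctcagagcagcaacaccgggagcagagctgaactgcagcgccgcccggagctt
Plin3 (chr17:56290462-56290761, minus strand): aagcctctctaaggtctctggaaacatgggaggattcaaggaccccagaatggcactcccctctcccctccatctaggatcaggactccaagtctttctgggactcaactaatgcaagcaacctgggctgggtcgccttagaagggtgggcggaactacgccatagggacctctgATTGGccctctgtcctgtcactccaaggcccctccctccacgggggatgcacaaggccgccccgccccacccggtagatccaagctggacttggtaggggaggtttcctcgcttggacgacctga
Apoa4 (chr9:46240594-46240893, plus strand): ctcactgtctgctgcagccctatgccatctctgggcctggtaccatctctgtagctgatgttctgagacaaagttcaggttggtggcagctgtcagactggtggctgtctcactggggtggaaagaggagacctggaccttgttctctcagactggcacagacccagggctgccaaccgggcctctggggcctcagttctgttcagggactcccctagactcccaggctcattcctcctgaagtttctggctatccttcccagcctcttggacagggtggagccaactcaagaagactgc
The Pnpla5 window held 1 E-box and 2 CCAAT boxes, the Pnpla3 and Plin3 windows 1 CCAAT box each, and the Apoa4 window neither. Promoters were listed for 30 of the 39 members. A member was counted when any of its listed promoters matched, while the percentages are of single promoters, so the units differ. On either strand, CACGTG occurred in 6 of these 30 (Lpin2, Lpin3, Plin2, Pnpla5, Lipe and Mgll) and in 7.15% of 32851 mouse promoters of this length. CCAAT occurred in 12 of 30 members and in 37.4% of promoters. The sterol-response letters TCACNCCAC were in 0 of 30 members and 1.24% of promoters, and a pair of AGGTCA half-sites 1 base apart in 0 of 30 members and 0.0396% of promoters. These are matches of letters only, and the motifs were not exclusive of each other.

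The members that led each step differed between the tissues. Levels between genes are given per length, as transcripts scaled to 1 M per library (TPM, mean ± SD over WT libraries, n = 4 in liver and n = 5 in cortex). Apoc3, which slows the clearance of triacylglycerol-rich particles, was the highest member in liver at 4291 ± 671 TPM, against 0.417 ± 0.138 TPM in cortex. Apoa4, an apolipoprotein of chylomicrons and nascent hepatic particles, stood at 1189 ± 511 TPM in liver, and across all 21 cortex libraries it had a single count. Angptl8, a feeding-induced lipase inhibitor, stood at 626 ± 601 TPM in liver and had 0 counts in all cortex libraries, which allows up to 0.00402 CPM over their 746 M counts. Next in liver came Apob (431 ± 98.8 TPM), the structural protein of very low density lipoprotein, Dgat2 (381 ± 64.8 TPM), the acyltransferase that finishes triacylglycerol, and Cideb (381 ± 32.1 TPM), a droplet protein that also helps lipidate these particles. The spreads of Angptl8, Apob, Dgat2 and Cideb overlapped. The place of Angptl8 rested on WT replicate 2, a high acute phase liver: without it Angptl8 stood at 342 ± 238 TPM (n = 3), below Apob (420.1 ± 118 TPM), Dgat2 (411 ± 33.8 TPM) and Cideb (393 ± 26.5 TPM).

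In cortex the order was another one. Mgll led with 147 ± 8.54 TPM, close to its 142 ± 44.3 TPM in liver. Agpat1 (121 ± 8.36 TPM) and Agpat3 (105 ± 6.42 TPM), which add the second acyl chain, followed. In liver Agpat1 was at 14.8 ± 3.38 TPM and Agpat3 at 48.2 ± 2.98 TPM, and their relative Agpat2 was the liver form, at 174 ± 42.5 TPM in liver and 1.46 ± 0.396 TPM in cortex. Agpat4 (43.2 ± 2.48 TPM in cortex and 0.966 ± 0.251 TPM in liver) and Pnpla3 (16.6 ± 2.09 TPM in cortex and 1.61 ± 1.66 TPM in liver) also stood higher in cortex. Tissue differences are descriptions, since the tissues were fitted apart. In each tissue the 10 steps of the pathway are named below with the member of highest WT level.

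**Figure D1:**
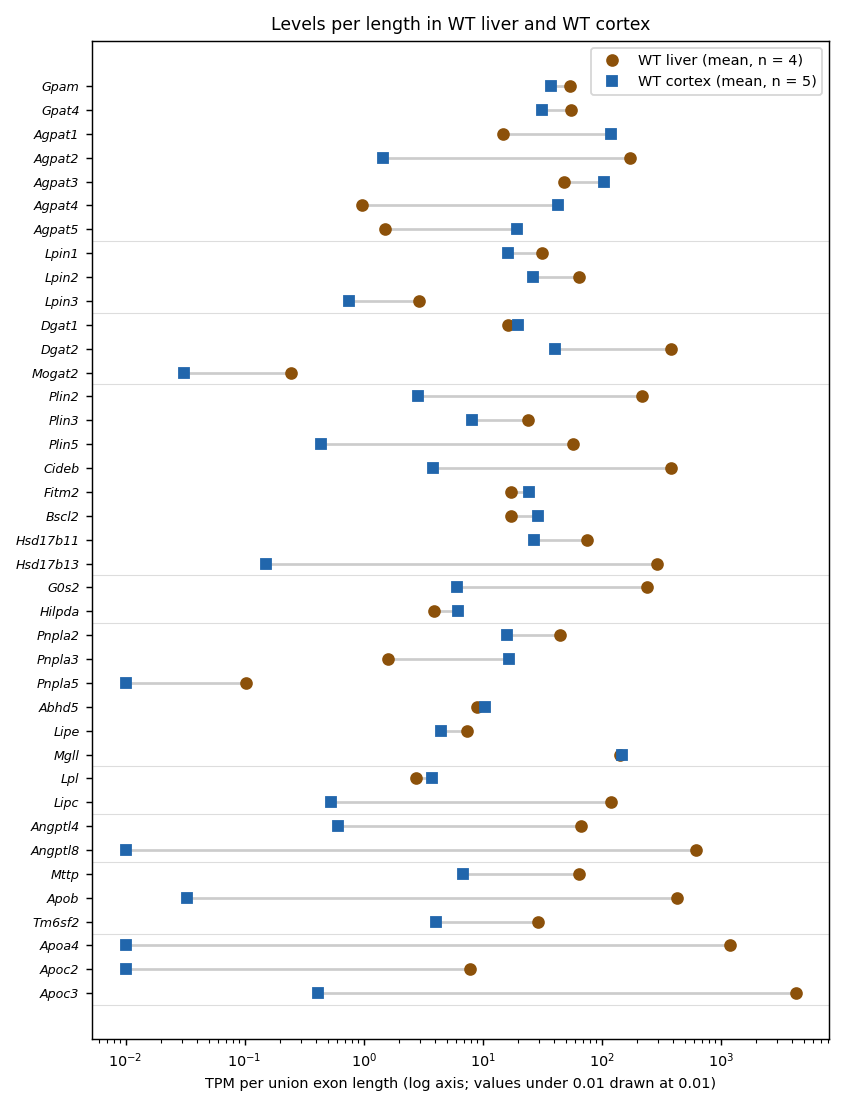
Levels of the 39 members in WT liver and WT cortex, mean TPM on a log axis, with values under 0.01 drawn at 0.01. Apoc3 and Apoa4 lead in liver, followed by Angptl8 through 1 WT library, and Mgll, Agpat1 and Agpat3 lead in cortex.

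In liver the changes that passed the test were in the same direction, and nearly all were in the combined genotype. Against WT, 6 of 39 members rose and 0 fell at an adjusted p under 0.05. That is 15.4% of members, beside 7.04% of the 16710 genes tested (4.19% higher and 2.85% lower). Without Pnpla5, whose WT counts were near 0, it was 5 of 38 (13.2%). The 6 were the lipases Pnpla5 and Pnpla3, the apolipoprotein Apoa4, the droplet coat Plin3, the secretion factor Tm6sf2 and the acyltransferase Agpat3. Against TDP-43Q331K 4 rose and 0 fell (10.3% of members, beside 3.94% of all genes, 2.17% higher and 1.77% lower), namely Pnpla5, Apoa4, Plin3 and Tm6sf2. Leaving Pnpla5 out gave 3 of 38 (7.89%). TMEM106B-/- against WT gave 1 riser, Pnpla5 (2.56% of members, beside 1.05% of all genes), and 0 of 38 members without Pnpla5. TDP-43Q331K against WT gave 0 calls with edgeR, beside 0.263% of all genes. At an unadjusted p under 0.05 were 6 of the 39 members, beside 15.2% of all genes, and DESeq2 called 1 member. The combined genotype against TMEM106B-/- also gave 0 with edgeR, beside 1.04% of all genes (0.485% higher and 0.551% lower). Here 9 members were at an unadjusted p under 0.05, beside 13.5% of all genes, and DESeq2 called 1 member. The comparisons of the combined genotype and of TMEM106B-/- with WT share the WT libraries. All 39 members passed the filter on low counts in liver, Pnpla5 through the 3 mutant genotypes.

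The median log2 fold change of the 39 members was 0.27 for the combined genotype against WT, beside -0.03 over all genes, and 30 of 39 values lay above 0. It was 0.07 for TMEM106B-/- and for TDP-43Q331K against WT. In the combined genotype 7 members had all 4 libraries above all 4 WT libraries (8.08% of all genes did) and 0 had all 4 below (6.48% of all genes did). The 7 were Pnpla5, Plin3, Tm6sf2, Agpat3, Plin2, Gpam and Hilpda. Replicate 2 of the combined genotype, which is not among the high acute phase livers, was the highest of the 16 libraries for 8 members (Gpam, Plin2, Plin3, Hilpda, Pnpla3, Pnpla5, Mgll and Apoa4). Against TDP-43Q331K 8 members of the combined genotype lay wholly above (7.59% of all genes) and 0 below (7.38%), and against TMEM106B-/- 8 above (4.51%) and 0 below (4.48%). Wholly above WT were 2 members in TMEM106B-/- (3.52%) and 4 in TDP-43Q331K (4.09%), with 0 below in either (3.67% and 4.54%). Without replicate 2 of the combined genotype, 6 members were again called against WT, with Angptl4 in and Pnpla3 out.

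**Figure D2:**
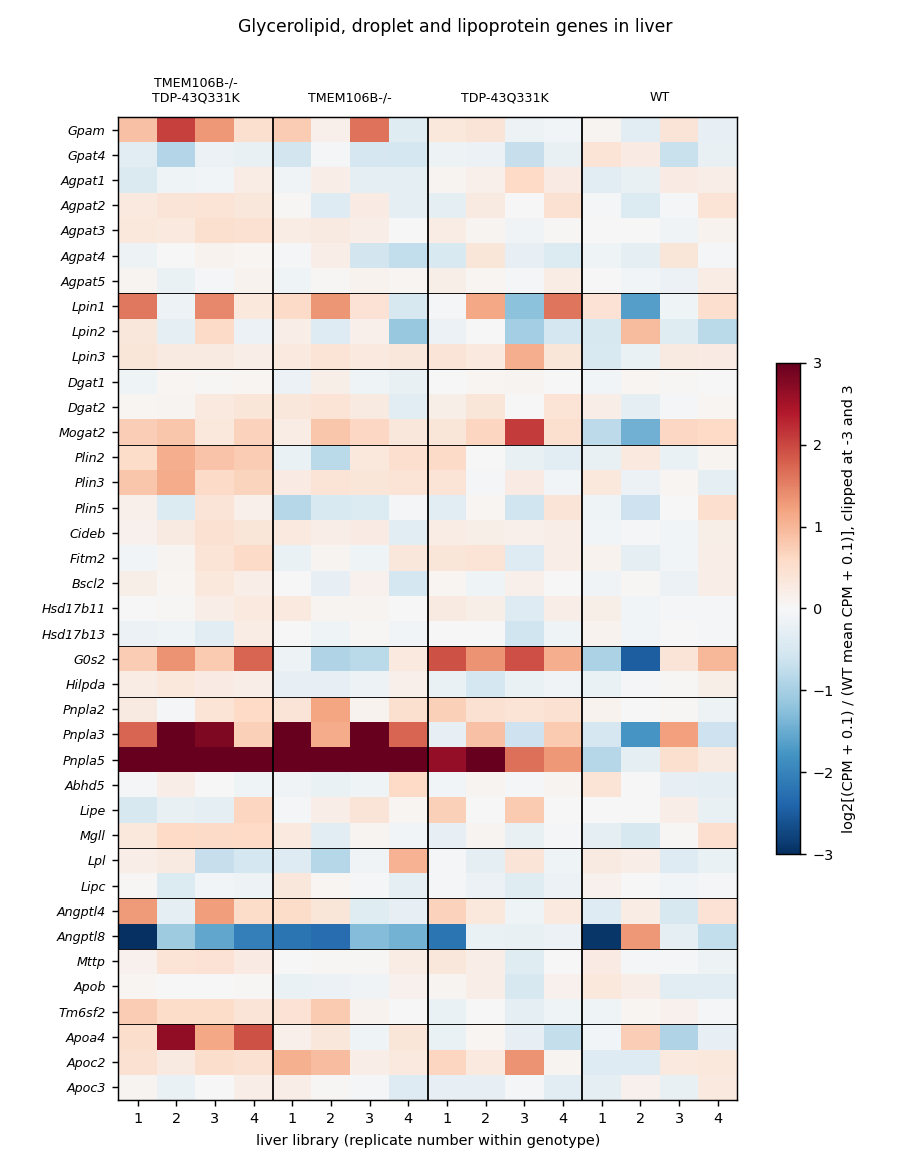
Heat map of the 39 members in 16 liver libraries, as log2 of each library's CPM over the WT mean with 0.1 CPM added to both, with colours limited to 3 in either direction. Pnpla5 and Pnpla3 are the rows most above WT in the combined genotype and TMEM106B-/-, and Apoa4 is above the WT mean in all 4 libraries of the combined genotype.

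**Figure D3:**
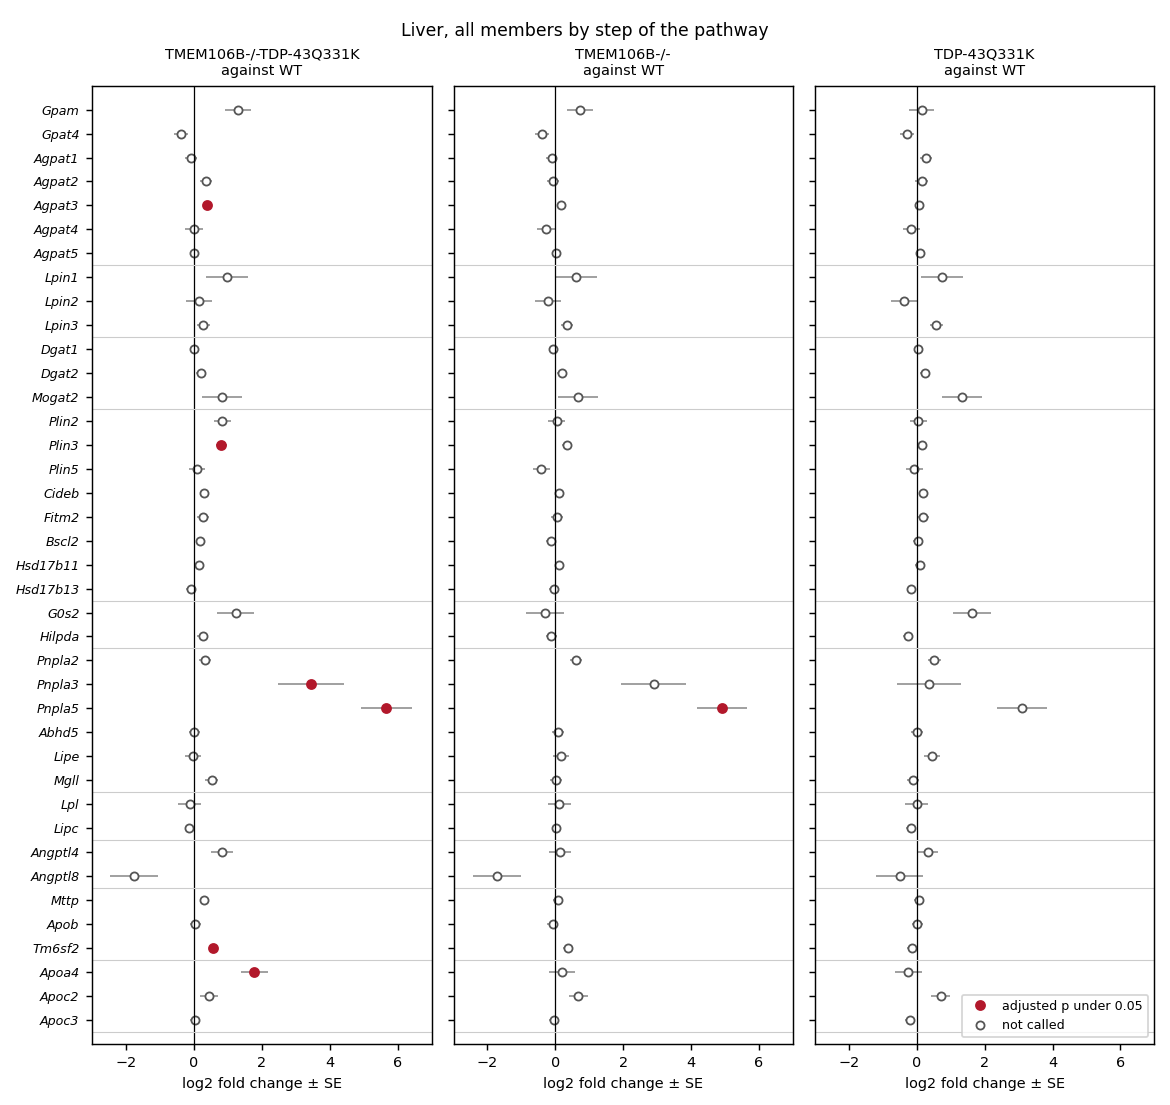
Log2 fold change ± SE of each member in liver for the combined genotype, TMEM106B-/- and TDP-43Q331K, each against WT, with called members in red. Calls number 6, 1 and 0 in these 3 comparisons.

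The largest differences were in the lipases Pnpla5 and Pnpla3, relatives of adipose triglyceride lipase that lie 44.7 kb apart on chromosome 15 (GRCm38). Pnpla5 (ENSMUSG00000018868, chromosome 15, 84112356 to 84123175, minus strand) had 3.29, 14.1, 4.26 and 2.30 CPM in the combined genotype, 2.90, 2.05, 4.22 and 4.89 CPM in TMEM106B-/-, 1.1995, 1.84, 0.564 and 0.422 CPM in TDP-43Q331K and 0.0173, 0.0740, 0.196 and 0.155 CPM in WT. These rest on 133 to 933 counts in the combined genotype, 126 to 370 in TMEM106B-/-, 28 to 111 in TDP-43Q331K and 1 to 14 in WT. Every library of the 3 mutant genotypes was above every WT library. All 4 libraries of each mutant genotype, and 1 WT library, reached the 0.161 CPM that the filter on low counts asks of 4 libraries, so the gene entered the test through the genotypes in which it was high. The 30 counts of WT set the size of the fold changes, which are given as a description. Pnpla5 was 51.0-fold higher in the combined genotype than in WT (log2 fold change 5.67 ± 0.75, adjusted p = 0.000427) and 30.0-fold higher in TMEM106B-/- (4.91 ± 0.74, adjusted p = 0.00545). With no filter the adjusted p-values were 0.00200 and 0.0192. TDP-43Q331K libraries lay between, 8.59-fold above WT without passing the edgeR test (3.10 ± 0.74, adjusted p = 0.102). They passed with DESeq2 (adjusted p = 0.00232), and with edgeR once the combined genotype's replicate 2 was left out (adjusted p = 0.0366). The combined genotype was also above TDP-43Q331K (2.57 ± 0.60, adjusted p = 0.0272), with no overlap. That call was lost when replicate 2 of the combined genotype or replicate 1, 3 or 4 of TDP-43Q331K was left out (adjusted p = 0.0932, 0.0577, 0.0908 and 0.0872), when no filter on low counts was used (adjusted p = 0.0777) and when just these groups were fitted (adjusted p = 0.0766).

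Pnpla3 (ENSMUSG00000041653, chromosome 15, 84167837 to 84187236, plus strand), a droplet-bound lipase whose human variant is linked to fatty liver, had 4.22, 38.3, 8.97 and 2.02 CPM in the combined genotype, 16.5, 2.70, 12.8 and 4.26 CPM in TMEM106B-/-, 0.989, 2.29, 0.746 and 2.13 CPM in TDP-43Q331K and 0.813, 0.278, 2.94 and 0.747 CPM in WT. Replicate 2 of the combined genotype was far above the rest, and the lowest library of the combined genotype lay under the highest WT library. Pnpla3 was 11.0-fold higher in the combined genotype than in WT (3.46 ± 0.97, adjusted p = 0.0484). The adjusted p was above 0.05 (0.0516 to 0.171) when any 1 of 13 of the 16 libraries was left out, and it was highest without replicate 2 of the combined genotype, where the log2 fold change was 2.08. The call was kept without replicate 1 or 4 of the combined genotype or replicate 3 of WT. The call was also lost with no filter (adjusted p = 0.105) and when just these groups were fitted (adjusted p = 0.134). Without the high acute phase livers the value was 3.44 ± 1.07 (adjusted p = 0.0940). TMEM106B-/- libraries spread over 2.70 to 16.5 CPM and did not pass against WT with edgeR (2.90 ± 0.96, adjusted p = 0.173), while DESeq2 called them (2.93 ± 0.89, adjusted p = 0.0313). DESeq2 also called the combined genotype against TDP-43Q331K (3.12 ± 0.89, adjusted p = 0.0112), where edgeR gave adjusted p = 0.0855. Across the 16 libraries Pnpla5 and Pnpla3 had the Pearson correlation 0.81 in log2 CPM, and Pnpla3 was most like Gpam (0.83). The points share libraries and genotypes, so these are descriptions.

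**Figure D4:**
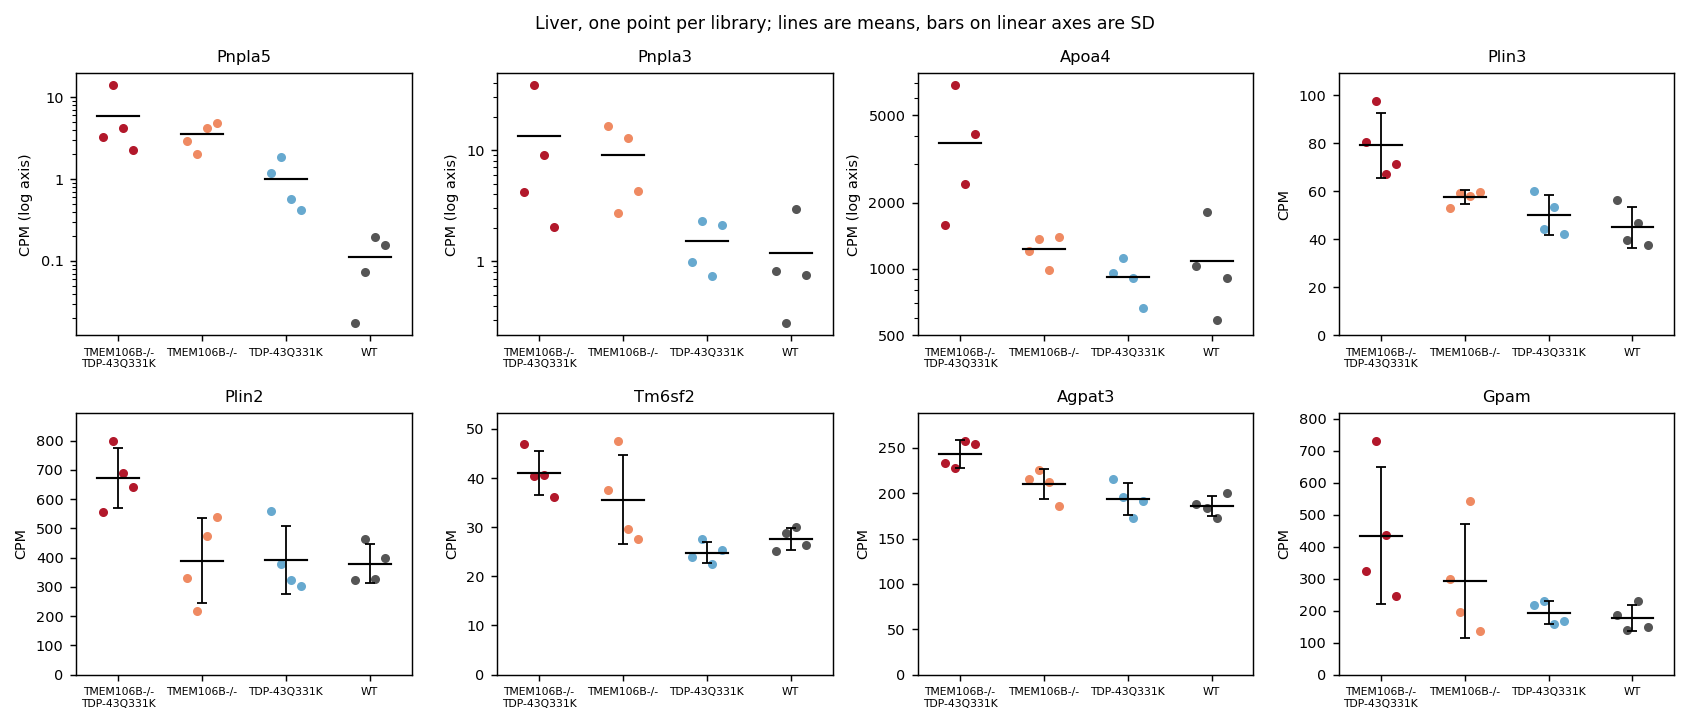
CPM of Pnpla5, Pnpla3, Apoa4 (log axes), Plin3, Plin2, Tm6sf2, Agpat3 and Gpam (linear axes from 0) in each liver library, ordered combined genotype, TMEM106B-/-, TDP-43Q331K, WT. Points are libraries, lines are means and bars on linear axes are SD; the highest Apoa4 and Pnpla3 points are replicate 2 of the combined genotype.

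The other lipolysis genes did not pass in the edgeR fit of all libraries, but Mgll did in several alternatives. Mgll, the leading lipolysis gene of liver, which releases the last fatty acid, had 439, 534, 529 and 533 CPM in the combined genotype, 435, 282, 375 and 333 CPM in TMEM106B-/-, 297, 373, 305 and 347 CPM in TDP-43Q331K and 295, 255, 364 and 505 CPM in WT. Replicate 1 of the combined genotype was below its other libraries, which lay between 529 and 534 CPM. Its log2 fold change was 0.52 ± 0.18, adjusted p = 0.0901 against WT and 0.62 ± 0.18, adjusted p = 0.0618 against TDP-43Q331K. Mgll passed against WT with DESeq2 (0.53 ± 0.19, adjusted p = 0.0495) and without replicate 4 of WT (0.74 ± 0.16, adjusted p = 0.0118). Against TDP-43Q331K it passed with DESeq2 (adjusted p = 0.0186), when just these groups were fitted (adjusted p = 0.0140), without the high acute phase livers (adjusted p = 0.0365) and without replicate 2 or 4 of WT (adjusted p = 0.0376 and 0.0239). Pnpla2, adipose triglyceride lipase, which takes the first fatty acid, differed by 0.60 ± 0.18 in TMEM106B-/- (adjusted p = 0.130) and by 0.52 ± 0.18 in TDP-43Q331K (adjusted p = 0.214), both against WT. All 4 TDP-43Q331K libraries of Pnpla2 were above all WT libraries. Its coactivator Abhd5 (0.01 ± 0.17) and hormone-sensitive lipase Lipe (-0.02 ± 0.23) were near 0 in the combined genotype against WT. Without replicate 4 of the combined genotype Lipe passed as lower than in TDP-43Q331K (-0.77 ± 0.19, adjusted p = 0.0319), against -0.45 (adjusted p = 0.279) with it. Of the inhibitors of PNPLA2, G0s2 was the leading one, with 177, 265, 179.9 and 348 CPM in the combined genotype, 93.0, 55.3, 58.8 and 127 CPM in TMEM106B-/-, 387, 265, 399 and 219 CPM in TDP-43Q331K and 53.8, 18.7, 136 and 206 CPM in WT. Its log2 fold change was 1.62 ± 0.56, adjusted p = 0.214 in TDP-43Q331K against WT, with no overlap, and 1.23 ± 0.55, adjusted p = 0.205 in the combined genotype against WT. The hypoxia-induced inhibitor Hilpda had a log2 fold change of 0.26 ± 0.16, adjusted p = 0.362 in the combined genotype against WT and 0.52 ± 0.16, adjusted p = 0.0747 against TDP-43Q331K, without overlap in either, and DESeq2 called Hilpda in the second comparison (adjusted p = 0.0191).

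Of the 8 droplet coat and assembly genes, 1 rose in the combined genotype. Plin3 (ENSMUSG00000024197, chromosome 17, 56277476 to 56292873, minus strand), a perilipin that moves from cytosol to growing droplets, had 80.5, 97.6, 67.3 and 71.3 CPM in the combined genotype, 53.2, 59.4, 58.0 and 59.6 CPM in TMEM106B-/-, 60.1, 44.1, 53.7 and 42.3 CPM in TDP-43Q331K and 56.2, 39.6, 46.7 and 37.5 CPM in WT. The lowest library of the combined genotype was above the highest of every other genotype. Plin3 was 1.76-fold higher than in WT (0.81 ± 0.15, adjusted p = 0.00295), and this call held in each alternative run. Against TDP-43Q331K it was 1.58-fold higher (0.66 ± 0.15, adjusted p = 0.0172), and the call was lost without replicate 2 of the combined genotype or replicate 2 or 4 of TDP-43Q331K (adjusted p = 0.0712, 0.0540 and 0.0660). Plin2, the main droplet coat of hepatocytes, had 557, 801, 690.4 and 641 CPM in the combined genotype, 329.5, 216, 475 and 539 CPM in TMEM106B-/-, 559.8, 378, 323 and 304 CPM in TDP-43Q331K and 324, 463, 328 and 400.2 CPM in WT. It was also without overlap against WT and TMEM106B-/-, and its lowest library (557 CPM) lay just under the highest of TDP-43Q331K (559.8 CPM). With edgeR it missed the threshold against WT (0.83 ± 0.25, adjusted p = 0.0533), TDP-43Q331K (0.78 ± 0.25, adjusted p = 0.0837) and TMEM106B-/- (0.79 ± 0.25, adjusted p = 0.149). DESeq2 called it against WT (adjusted p = 0.0149) and TDP-43Q331K (adjusted p = 0.0303), as did edgeR when just the compared groups were fitted (adjusted p = 0.0134 and 0.0402). It also passed in both without replicate 1 of TDP-43Q331K (adjusted p = 0.0379 and 0.0383) or replicate 2 of TMEM106B-/- (adjusted p = 0.0220 and 0.0411). Against WT alone it passed without replicate 4 of TMEM106B-/- (adjusted p = 0.0360) and without the high acute phase livers (1.02 ± 0.26, adjusted p = 0.0398).

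Cideb, the leading droplet gene of liver, had 307, 339, 388 and 360.1 CPM in the combined genotype, 341, 325, 334 and 224 CPM in TMEM106B-/-, 328, 315, 312 and 320.3 CPM in TDP-43Q331K and 267, 273, 267 and 317 CPM in WT. Its groups overlapped, and the log2 fold change of the combined genotype against WT was 0.31 ± 0.12, adjusted p = 0.142 (0.0482 without replicate 4 of TMEM106B-/-). Cideb shares 76.3% of its exon bases with Nop9 on the opposite strand, which stood at 19.1 to 26.2 CPM, so a small part of its counts may not be told apart without the strand setting. Plin5, which ties droplets to mitochondria, Fitm2 and the seipin gene Bscl2, which act in droplet budding, and the droplet dehydrogenases Hsd17b11 and Hsd17b13 had log2 fold changes of 0.09, 0.27, 0.19, 0.14 and -0.09 in the combined genotype against WT. None of these passed. Hsd17b13, next to Hsd17b11 on chromosome 5, stood at 289.8 ± 30.6 TPM in WT liver and did not pass in any comparison.

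Of the 7 genes that add the first acyl chains, 1 rose in the combined genotype against WT. Agpat3 (ENSMUSG00000001211, chromosome 10, 78269178 to 78352489, minus strand), which acylates lysophosphatidate, had 233, 228, 258 and 254 CPM in the combined genotype, 216, 225, 212 and 186 CPM in TMEM106B-/-, 216, 196, 173 and 191 CPM in TDP-43Q331K and 188, 184, 173 and 199.99 CPM in WT. All 4 libraries of the combined genotype lay above those of every other genotype. The difference from WT was 1.31-fold (0.39 ± 0.10, adjusted p = 0.0239) and was lost without replicate 3 or 4 of the combined genotype or replicate 2 or 3 of WT (adjusted p = 0.0777, 0.0633, 0.0572 and 0.0691) and with no filter on low counts (adjusted p = 0.0600). Against TDP-43Q331K Agpat3 was at 0.33 with adjusted p = 0.0676 by edgeR, and passed with DESeq2 (adjusted p = 0.0117) and without replicate 4 of TMEM106B-/- (adjusted p = 0.0471). Gpam, the mitochondrial acyltransferase that starts the pathway, had 324, 731, 438 and 246 CPM in the combined genotype, 297, 195, 541 and 136 CPM in TMEM106B-/-, 219, 229, 159 and 168 CPM in TDP-43Q331K and 188, 139, 229 and 149 CPM in WT. Its lowest library of the combined genotype was above the highest WT library, and replicate 2 of the combined genotype was the highest of all. With edgeR it missed the threshold against WT at 1.30 ± 0.39, adjusted p = 0.0571. It passed with DESeq2 (1.31 ± 0.35, adjusted p = 0.00463) and without replicate 3 or 4 of TMEM106B-/- or replicate 4 of the combined genotype (adjusted p = 0.0223, 0.0326 and 0.0405). Against TDP-43Q331K DESeq2 called it (1.17 ± 0.35, adjusted p = 0.0187), where edgeR gave adjusted p = 0.104. Agpat2, the leading member of this step in liver, had 223, 241, 245 and 232 CPM in the combined genotype, 189, 140.3, 217 and 151 CPM in TMEM106B-/-, 152, 222, 183 and 250.4 CPM in TDP-43Q331K and 178, 138, 175 and 243 CPM in WT, with overlapping groups (0.36 ± 0.18, adjusted p = 0.243, combined genotype against WT). Gpat4, Agpat1, Agpat4 and Agpat5 lay between -0.38 and 0.01 in log2 fold change in the combined genotype against WT, and none was called.

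The next steps toward triacylglycerol had 0 calls in liver with edgeR in any of the 6 comparisons. Lpin2, the leading phosphatidate phosphatase, had 505, 334, 598 and 354 CPM in the combined genotype, 458, 305, 444 and 183 CPM in TMEM106B-/-, 353, 401, 199.6 and 281 CPM in TDP-43Q331K and 289.8, 774, 313 and 229 CPM in WT, and WT replicate 2, a high acute phase liver, was the highest. Its log2 fold change was 0.16 ± 0.38, adjusted p = 0.859 in the combined genotype against WT, and 0.63 ± 0.27, adjusted p = 0.205 without the high acute phase livers. In TMEM106B-/- and TDP-43Q331K it was -0.21 and -0.38 against WT, and 0.54 and 0.15 without those livers, with no call. Lpin1, which is induced by fasting, differed by 0.97 ± 0.62, adjusted p = 0.397 in the same comparison. Lpin3 was 0.58 ± 0.18 in TDP-43Q331K against WT (adjusted p = 0.180), with no overlap. Dgat2 had 602, 609.5, 707 and 750.0 CPM in the combined genotype, 729.5, 774, 694 and 465 CPM in TMEM106B-/-, 659, 745, 585 and 777 CPM in TDP-43Q331K and 667, 479.6, 568 and 606 CPM in WT, so all groups overlapped, and its log2 fold change in the combined genotype against WT was 0.20 ± 0.15, adjusted p = 0.480. Dgat1, the other final acyltransferase, was at 0.00, and Mogat2, the intestinal monoacylglycerol acyltransferase, was at 0.83 at no more than 1.26 CPM in any liver. DESeq2 also called none of these 6 genes.

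The largest difference in an apolipoprotein was that of Apoa4 (ENSMUSG00000032080, chromosome 9, 46240696 to 46243459, plus strand), which had 1576, 6846, 2420 and 4096 CPM in the combined genotype, 1201, 1366, 986 and 1399.7 CPM in TMEM106B-/-, 954, 1126, 913 and 667 CPM in TDP-43Q331K and 1034, 1819, 584 and 909.8 CPM in WT. Replicate 2 of the combined genotype was the highest library, and its replicate 1 lay under WT replicate 2. Apoa4 was 4.08-fold higher in the combined genotype than in TDP-43Q331K (log2 fold change 2.03 ± 0.40, adjusted p = 0.0116), with no overlap, and 3.44-fold higher than in WT (1.78 ± 0.40, adjusted p = 0.0148). The call against WT was lost when only these groups were fitted (adjusted p = 0.0843), and without the high acute phase livers it was 2.40 ± 0.34 (adjusted p = 0.00150). Against TMEM106B-/- all 4 libraries of the combined genotype were higher, short of the threshold with edgeR (1.59 ± 0.39, adjusted p = 0.0778). That comparison passed with DESeq2 (1.60 ± 0.36, adjusted p = 0.00116), without the high acute phase livers (1.91 ± 0.33, adjusted p = 0.0195) and without replicate 1 of the combined genotype or replicate 2 of WT (adjusted p = 0.0242 and 0.0408). The test of whether TMEM106B loss acted differently with and without TDP-43Q331K, the interaction, gave 1.84 ± 0.55, adjusted p = 0.131 with edgeR and 1.85 ± 0.51, adjusted p = 0.0159 with DESeq2. Apoa4 overlaps antisense transcripts over 69.8% of its exon bases, and these reached at most 4.25 CPM.

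Its neighbour Apoc3, 5.06 kb away on chromosome 9 and the most abundant member, had 2297, 1899, 2183 and 2497 CPM in the combined genotype, 2489, 2236, 2080 and 1664 CPM in TMEM106B-/-, 1816, 1824, 2098 and 1726 CPM in TDP-43Q331K and 1796, 2356, 1854 and 2655 CPM in WT. The groups overlapped, and the log2 fold change of the combined genotype against WT was 0.04 ± 0.15, adjusted p = 0.924. Apoc2, the activator of lipoprotein lipase, had a log2 fold change of 0.44 at 2.39 to 8.23 CPM, and its level is uncertain because 79.5% of its exon bases are shared with another gene on the same strand, listed at 0. Tm6sf2 (ENSMUSG00000036151, chromosome 8, 70072924 to 70080066, plus strand), which helps lipidate very low density lipoprotein, had 47.0, 40.3, 40.6 and 36.1 CPM in the combined genotype, 37.5, 47.6, 29.7 and 27.6 CPM in TMEM106B-/-, 23.9, 27.5, 22.4 and 25.3 CPM in TDP-43Q331K and 25.1, 28.8, 30.0 and 26.3 CPM in WT. The combined genotype lay wholly above TDP-43Q331K (0.73 ± 0.14, adjusted p = 0.0102, 1.65-fold) and WT (0.57 ± 0.14, adjusted p = 0.0236, 1.49-fold), and overlapped TMEM106B-/-. The call against WT was lost without replicate 1 or 3 of the combined genotype or replicate 1 or 4 of WT (adjusted p = 0.0684, 0.0537, 0.0533 and 0.0543) and without the high acute phase livers (0.52 ± 0.15, adjusted p = 0.0545). Apob had 3119, 3017, 3016 and 3071 CPM in the combined genotype, 2584, 2629, 2783 and 3261 CPM in TMEM106B-/-, 3134, 3438, 2147 and 3278 CPM in TDP-43Q331K and 3719, 3436, 2388 and 2385 CPM in WT, with a log2 fold change of 0.04 ± 0.16, adjusted p = 0.930 in the combined genotype against WT. Its partner Mttp, the transfer protein that loads lipid onto it, was at 0.31 ± 0.14, adjusted p = 0.187 in that comparison.

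The lipases of vessel walls and their inhibitors had 0 calls in liver. Hepatic lipase Lipc had 131, 95.3, 121 and 114 CPM in the combined genotype, 162, 132, 123 and 105 CPM in TMEM106B-/-, 124, 112, 99.6 and 114 CPM in TDP-43Q331K and 139, 129, 120.1 and 122 CPM in WT (-0.14 ± 0.13, adjusted p = 0.552 in the combined genotype against WT), with overlapping groups. Lpl, lipoprotein lipase, was at -0.12. The inhibitor Angptl8 had 33.5, 131, 94.6 and 66.5 CPM in the combined genotype, 60.8, 56.4, 113 and 104 CPM in TMEM106B-/-, 60.4, 240.4, 237 and 246 CPM in TDP-43Q331K and 36.8, 678, 227 and 165 CPM in WT. The spread within genotypes was wide, and the log2 fold changes against WT were -1.76 ± 0.71, adjusted p = 0.154 for the combined genotype and -1.73 ± 0.71, adjusted p = 0.267 for TMEM106B-/-. Without the high acute phase livers, which include the 678 CPM library of WT, these were -0.55 ± 0.65, adjusted p = 0.690 and -0.90 ± 0.65, adjusted p = 0.615, and TDP-43Q331K against WT was at 0.45 ± 0.61 in place of -0.50, so its sign turned. Angptl4, the fasting-induced inhibitor of lipoprotein lipase, was at 0.82 ± 0.32, adjusted p = 0.142 in the combined genotype against WT and passed when replicate 2 of that genotype was left out (1.06 ± 0.28, adjusted p = 0.0435).

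Among members, the interaction gave 0 calls in liver with edgeR, beside 0.688% of all genes. At an unadjusted p under 0.05 were 8 members, beside 16.3% of all genes, and DESeq2 called 1 member. The smallest p was that of Apoa4, given with its values. Pnpla2 (-0.78 ± 0.26, adjusted p = 0.158) and Pnpla5 (-2.34 ± 0.93, adjusted p = 0.232) were negative, and Hilpda (0.64 ± 0.22, adjusted p = 0.180) was positive. A positive value means that TMEM106B loss went with a larger log2 fold change on the TDP-43Q331K background.

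Other genes of the same pathway, from 4 lists, showed where else the combined genotype differed in liver. Of 19 tested acyltransferases and droplet proteins outside the set, 8 rose against WT and 0 fell (42.1%, beside 7.04% of all genes; median log2 fold change 0.64). All 8 were called with any 1 library left out, and 7 without the high acute phase livers (Lclat1 missed at adjusted p = 0.0503). Acsl5, which activates fatty acids, was at 1.01 ± 0.14, adjusted p = 0.000447, and Pnpla7, a lysophospholipase, at 0.72 ± 0.13, adjusted p = 0.00250. Gpat3 and Mogat1, alternative acyltransferases, had the smallest p at 2.48 ± 0.25, adjusted p = 1.85e-05 and 3.0 ± 0.34, adjusted p = 6.99e-05. Named after their values were seen, the other 4 risers were the droplet proteins Cidea (6.35 ± 1.11), Cidec (3.36 ± 0.58) and Fitm1 (0.96 ± 0.18), and the acyltransferase Lclat1 (0.58 ± 0.13). Cidea had 60 counts in all WT livers, 3 of which reached the filter's 0.161 CPM, so few WT counts set the size of its fold change. Cidec had 9.38, 42.5, 27.1 and 49.9 CPM in the combined genotype, 3.11, 2.72, 7.96 and 9.02 CPM in TMEM106B-/-, 6.45, 9.46, 2.86 and 2.65 CPM in TDP-43Q331K and 3.98, 3.29, 2.31 and 2.95 CPM in WT. Both Acsl5 (0.80 ± 0.14, adjusted p = 0.0128) and Pnpla7 (0.60 ± 0.13, adjusted p = 0.0319) also rose in TMEM106B-/- against WT, Pnpla7 not without the high acute phase livers (adjusted p = 0.105). These were 2 of 19 (10.5%, beside 1.05% of all genes). Neither call was kept throughout when each library was left out in turn. In the interaction Gpat3 passed at 2.91 ± 0.35, adjusted p = 0.00101.

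Of 20 genes of the phospholipid arm, which takes diacylglycerol to phosphatidylcholine and phosphatidylethanolamine, 0 were called in the combined genotype against WT. Against TDP-43Q331K 1 rose, Cept1, the choline and ethanolamine phosphotransferase (0.63 ± 0.15, adjusted p = 0.0213). That is 5% of the 20, near the 3.94% of all genes, and the call was not kept throughout when each library was left out in turn. Of 34 other lipoprotein genes 1 rose and 2 fell against WT, which is 8.82%, near the 7.04% of all genes. The riser was the receptor Vldlr (2.41 ± 0.42, adjusted p = 0.00257), and those that fell were Sort1 (-1.55 ± 0.27, adjusted p = 0.00272), a sorting receptor that binds apolipoprotein B, and Apoa1 (-0.39 ± 0.11, adjusted p = 0.0408), the main protein of high density lipoprotein. Sort1 and Apoa1 also fell against TMEM106B-/- (-1.30 ± 0.27, adjusted p = 0.0291 and -0.49 ± 0.11, adjusted p = 0.0429). Without the high acute phase livers the call of Apoa1 against WT (adjusted p = 0.121) and both calls against TMEM106B-/- (adjusted p = 0.0801 for Sort1 and 0.0654 for Apoa1) were lost. Of 18 transcription regulators 2 rose and 1 fell against WT (16.7%). They were Pparg (0.75 ± 0.21, adjusted p = 0.0368, and 0.164 without the high acute phase livers), which drives droplet genes in fat and fatty liver, the coactivator Ppargc1a (1.13 ± 0.26, adjusted p = 0.0148) and Xbp1 (-0.73 ± 0.19, adjusted p = 0.0252), a factor of the unfolded protein response. With each library left out in turn, 2 of the 3 lipoprotein genes and 1 of the 3 regulators kept their call against WT throughout. TDP-43Q331K against WT gave 0 edgeR calls in all 4 lists.

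Markers of other cells were measured in the same livers. In bulk tissue, more cells of a type and more RNA per cell cannot be told apart. The 7 adipocyte markers summed to 36.7 to 45.2 CPM in the combined genotype, 23.8 to 49.1 CPM in TMEM106B-/-, 41.7 to 76.1 CPM in TDP-43Q331K and 26.9 to 38.0 CPM in WT, most of it the adrenoceptor Adrb3. Without Adrb3 the other 6 summed to 12.03 to 15.4 CPM in the combined genotype, 7.67 to 11.0 CPM in TMEM106B-/-, 5.38 to 8.88 CPM in TDP-43Q331K and 5.97 to 7.87 CPM in WT. Of the 4 tested, Fabp4 was higher in the combined genotype than in WT (0.90 ± 0.18, adjusted p = 0.00546). Retn was called too (4.43 ± 0.99, adjusted p = 0.0126), but it had 2 counts in all WT livers and reached the filter's 0.161 CPM in 5 of 16 livers, 4 of them of the combined genotype, so it entered the test through the group in which it was high. The defining adipocyte genes Adipoq, Lep and Plin1 reached at most 0.515, 0.0936 and 0.452 CPM, all in replicate 3 of the combined genotype. Stellate cell markers summed to 203 to 238 CPM in the combined genotype, 189 to 204 CPM in TMEM106B-/-, 151 to 180.1 CPM in TDP-43Q331K and 146 to 218 CPM in WT, with 2 of 8 higher in the combined genotype than in WT. Hepatocyte markers summed to 105350 to 132530 CPM in the combined genotype, 134240 to 142820 CPM in TMEM106B-/-, 107850 to 135290 CPM in TDP-43Q331K and 113080 to 137640 CPM in WT, with 3 of 10 lower in that comparison. Clock genes summed to 462 to 811 CPM in the combined genotype, 651 to 1062 CPM in TMEM106B-/-, 762 to 1045 CPM in TDP-43Q331K and 567 to 859.6 CPM in WT. Of the 12 clock genes 2 were called in opposite directions in the combined genotype against WT. Npas2 was higher (2.68 ± 0.64, adjusted p = 0.0184) and Per2 lower (-0.95 ± 0.23, adjusted p = 0.0197). Npas2 had 25 counts in WT and reached the filter's 0.161 CPM in 0 WT livers. It did so in 3 livers of the combined genotype, 3 of TMEM106B-/- and 1 of TDP-43Q331K, so it entered the test through the mutant genotypes. The part of these markers in the members' results was not tested.

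In cortex 30 of the 39 members passed the filter on low counts, and 1 of them changed. Angptl4 (ENSMUSG00000002289, chromosome 17, 33773750 to 33781830, minus strand) rose in both genotypes labelled TMEM106B-/-. Angptl4 had 0.926, 1.83, 1.62, 1.88 and 1.67 CPM in the combined genotype, 1.17, 1.16, 0.875, 0.854 and 1.56 CPM in TMEM106B-/-, 0.556, 0.867 and 1.21 CPM (lowest, median and highest of 6) in TDP-43Q331K and 0.431, 0.507, 0.669, 0.724 and 0.676 CPM in WT. The lowest libraries of the combined genotype and of TMEM106B-/- were above the highest WT library, while TDP-43Q331K overlapped every other genotype. It was 2.63-fold higher in the combined genotype than in WT (1.39 ± 0.24, adjusted p = 0.00402), which held in each of the 29 alternatives run. It was 1.89-fold higher in TMEM106B-/- than in WT (0.91 ± 0.24, adjusted p = 0.0256) and 1.88-fold higher in the combined genotype than in TDP-43Q331K (log2 fold change 0.91 ± 0.21, adjusted p = 0.0386). These 769 counts over 21 libraries are few, at 15 to 72 per library.

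The call for Angptl4 in TMEM106B-/- against WT was lost without replicate 1, 2 or 5 of TMEM106B-/- or replicate 1 or 2 of WT (adjusted p = 0.0579, 0.0503, 0.0901, 0.0683 and 0.0686). It was also lost without the carried-over set of cortices (0.66 ± 0.24, adjusted p = 0.145) and without those farthest in oligodendrocyte (0.81 ± 0.27, adjusted p = 0.111) or meninges markers (0.66 ± 0.26, adjusted p = 0.177). In the combined genotype against WT these 3 gave 1.24 ± 0.23 (adjusted p = 0.00993), 1.27 ± 0.26 (adjusted p = 0.0111) and 1.24 ± 0.25 (adjusted p = 0.0137). The call for Angptl4 against TDP-43Q331K was lost without replicate 2, 3 or 4 of the combined genotype or replicate 1, 4, 5 or 6 of TDP-43Q331K (adjusted p = 0.0630, 0.0735, 0.101, 0.0799, 0.0563, 0.0840 and 0.0595) when just these groups were fitted (adjusted p = 0.0706), and without the cortices farthest in oligodendrocyte or meninges markers (adjusted p = 0.0616 and 0.0622). Across the 21 libraries its log2 CPM was most like that of Plin2 (Pearson correlation 0.73) and Lpl (0.59), as a description over libraries that share genotypes.

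Calls among the cortex members were as rare as among all genes or rarer in the comparisons with WT. The combined genotype against WT gave 1 of 30 members (3.33%, beside 4.89% of 21248 genes, 2.53% higher and 2.36% lower), as did TMEM106B-/- against WT (beside 5.16%) and the combined genotype against TDP-43Q331K (beside 1.4%). TDP-43Q331K against WT, the combined genotype against TMEM106B-/- and the interaction each gave 0 members and 0% of all genes. DESeq2 called 0 members in them. In each, 1 of 30 members was at an unadjusted p under 0.05, beside 4.88%, 4.96% and 4.57% of all genes. All libraries of the combined genotype lay above WT for 2 members, Angptl4 and Cideb (2.96% of all genes), and below for 0 (2.96%). In TMEM106B-/- 1 member, Angptl4, lay wholly above WT (2.5% of all genes) and 1, Plin3, wholly below (3.39%). Median log2 fold changes of members lay between 0.00 and 0.05 in the 6 comparisons.

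The leading members of each step in cortex differed little. Mgll had 227, 220.0, 235, 220.3 and 235 CPM in the combined genotype, 228, 227, 216, 228 and 251 CPM in TMEM106B-/-, 196, 217 and 245 CPM (lowest, median and highest of 6) in TDP-43Q331K and 227, 211, 192, 213 and 205 CPM in WT, with a log2 fold change of 0.12 ± 0.05, adjusted p = 0.205 in the combined genotype against WT. Agpat1 had 93.9, 87.2, 97.1, 103 and 111 CPM in the combined genotype, 95.9, 95.3, 110.1, 109 and 95.1 CPM in TMEM106B-/-, 92.9, 98.2 and 109.5 CPM (lowest, median and highest of 6) in TDP-43Q331K and 102, 98.9, 112, 102 and 92.5 CPM in WT and a log2 fold change of -0.04 ± 0.06, adjusted p = 0.773. Both had overlapping groups. Lpin2 had 86.7, 92.2, 86.4, 91.8 and 91.1 CPM in the combined genotype, 96.3, 92.8, 90.2, 92.5 and 92.9 CPM in TMEM106B-/-, 87.5, 93.2 and 95.3 CPM (lowest, median and highest of 6) in TDP-43Q331K and 93.1, 86.0, 94.6, 86.5 and 90.5 CPM in WT, with -0.01 ± 0.04, adjusted p = 0.924 in the same comparison. Bscl2 had 50.5, 45.5, 49.958, 46.5 and 49.8 CPM in the combined genotype, 50.3, 49.5, 54.1, 49.7 and 48.2 CPM in TMEM106B-/-, 42.4, 47.4 and 49.5 CPM (lowest, median and highest of 6) in TDP-43Q331K and 47.9, 48.7, 48.8, 48.6 and 48.0 CPM in WT, with 0.00 ± 0.05, adjusted p = 0.989. The groups of both overlapped in the 5 pairwise comparisons. Hilpda had 1.74, 2.34, 1.89, 1.52 and 1.62 CPM in the combined genotype, 1.57, 1.99, 2.17, 1.73 and 1.93 CPM in TMEM106B-/-, 1.80, 2.05 and 2.11 CPM (lowest, median and highest of 6) in TDP-43Q331K and 2.19, 1.92, 1.93, 1.63 and 1.87 CPM in WT (-0.07 ± 0.13, adjusted p = 0.815), and Lpl had 11.6, 15.1, 11.6, 12.2 and 10.6 CPM in the combined genotype, 11.9, 10.9, 11.9, 10.6 and 13.8 CPM in TMEM106B-/-, 8.90, 10.5 and 12.4 CPM (lowest, median and highest of 6) in TDP-43Q331K and 9.89, 11.4, 9.84, 10.7 and 13.6 CPM in WT (0.14 ± 0.11, adjusted p = 0.460). Their groups overlapped in the 5 pairwise comparisons. Dgat2 had 30.3, 22.7, 26.9, 27.3 and 33.9 CPM in the combined genotype, 32.7, 32.9, 35.5, 31.8 and 21.1 CPM in TMEM106B-/-, 31.5, 33.6 and 39.6 CPM (lowest, median and highest of 6) in TDP-43Q331K and 34.2, 34.2, 36.5, 37.4 and 32.3 CPM in WT. Replicate 5 of TMEM106B-/-, the farthest of its group in meninges markers, was the lowest. The log2 fold change of Dgat2 was -0.31 ± 0.11, adjusted p = 0.117 in the combined genotype against WT, and it passed without the carried-over set of cortices (-0.25 ± 0.07, adjusted p = 0.0464) and without replicate 5 of TMEM106B-/- or of the combined genotype (adjusted p = 0.0237 and 0.0432), but not without the cortices farthest in oligodendrocyte or meninges markers (adjusted p = 0.0864 and 0.0597). Mttp had 11.7, 9.71, 9.24, 9.60 and 9.72 CPM in the combined genotype, 11.3, 11.5, 11.5, 11.8 and 8.29 CPM in TMEM106B-/-, 9.03, 10.7 and 12.4 CPM (lowest, median and highest of 6) in TDP-43Q331K and 11.5, 11.96, 12.1, 10.9 and 12.6 CPM in WT, with -0.24 ± 0.09, adjusted p = 0.133 in the combined genotype against WT and overlapping groups. Apoc3, the highest apolipoprotein member in cortex, had 104 counts over all 21 libraries and was not tested.

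Plin3 had lower values in TMEM106B-/- libraries of cortex, without passing with edgeR. It had 5.26, 7.37, 7.40, 7.82 and 8.79 CPM in the combined genotype, 6.31, 6.66, 5.18, 6.55 and 7.87 CPM in TMEM106B-/-, 7.53, 10.6 and 11.7 CPM (lowest, median and highest of 6) in TDP-43Q331K and 7.91, 9.02, 7.94, 9.95 and 8.21 CPM in WT. All 5 TMEM106B-/- libraries were below all 5 WT libraries (-0.40 ± 0.14, adjusted p = 0.103), and the combined genotype against TDP-43Q331K was at -0.42 ± 0.13, adjusted p = 0.0950. That comparison passed with DESeq2 (adjusted p = 0.0397), without replicate 5 of the combined genotype or replicate 2 of TDP-43Q331K (adjusted p = 0.0359 and 0.0478) and without the cortices farthest in oligodendrocyte markers (-0.57 ± 0.14, adjusted p = 0.0258). Whether the tissues differ was not tested. Cideb had 2.78, 2.10, 2.03, 2.17 and 2.29 CPM in the combined genotype, 1.93, 2.20, 1.65, 2.17 and 2.83 CPM in TMEM106B-/-, 1.83, 2.07 and 2.87 CPM (lowest, median and highest of 6) in TDP-43Q331K and 1.47, 1.68, 1.90, 1.18 and 1.80 CPM in WT, with all libraries of the combined genotype above WT (0.50 ± 0.16, adjusted p = 0.0731 with edgeR and 0.0495 with DESeq2). In cortex the antisense gene Nop9 stood at 8.65 to 11.7 CPM, above the level of Cideb, so the Cideb values are uncertain. Lipe likewise shares 15.6% of its exon bases with an antisense gene at 16.4 to 22.3 CPM, against its own 5.76 to 9.30 CPM. The 9 members left out of the cortex fit were Mogat2, Hsd17b13, Pnpla5, Lipc, Angptl8, Apob, Apoa4, Apoc2 and Apoc3. Apoc2 and Angptl8 had 0 counts in 21 libraries, Pnpla5 had 4 counts in 3 libraries and Mogat2 6 counts in 3 libraries. The rise of Pnpla5 seen in liver was not detectable in cortex at this depth.

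**Figure D5:**
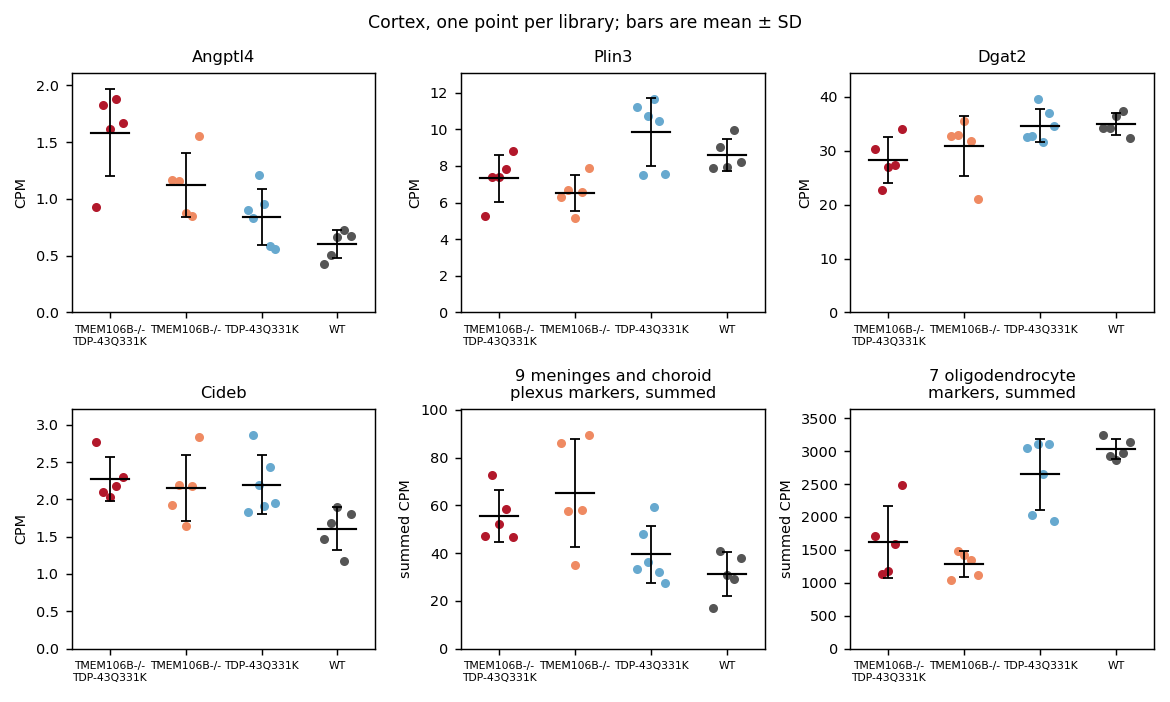
CPM of Angptl4, Plin3, Dgat2 and Cideb, and summed CPM of 9 meninges and choroid plexus markers and 7 oligodendrocyte markers, in each cortex library with mean ± SD per genotype. Angptl4 is lowest in WT (0.431 to 0.724 CPM), and oligodendrocyte markers are highest there.

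Of the other pathway genes in cortex, 25 lipoprotein genes were tested. In the combined genotype against WT 3 of them rose and 0 fell (12%, beside 4.89% of all genes). These were Lcat (0.44 ± 0.10, adjusted p = 0.0164), which esterifies cholesterol in lipoproteins, Pltp (0.41 ± 0.08, adjusted p = 0.00491), a phospholipid transfer protein, and the lipoprotein receptor Lsr (0.59 ± 0.16, adjusted p = 0.0314). The same 3 rose in TMEM106B-/- against WT (Lcat 0.40 ± 0.10, Pltp 0.41 ± 0.08 and Lsr 0.78 ± 0.15), a comparison that shares the WT libraries. Without the carried-over set of cortices Lcat was not called in either (adjusted p = 0.0543 and 0.0794). Of 20 phospholipid genes 2 fell in the combined genotype against WT (10%), the ethanolamine kinase Etnk2 (-0.79 ± 0.18, adjusted p = 0.0174) and Lpcat1 (-0.21 ± 0.06, adjusted p = 0.0378), which reacylates lysophosphatidylcholine. Neither was called without the cortices farthest in oligodendrocyte markers (adjusted p = 0.0523 and 0.0814). Of 16 other acyltransferases and droplet proteins 0 were called there. In TMEM106B-/- against WT 1 fell, Mboat1 (-1.04 ± 0.18, adjusted p = 0.00165), which is 6.25%, near the 5.16% of all genes.

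Tissue markers moved with the same groups of cortex. Oligodendrocyte markers summed to 1129 to 2490.5 CPM in the combined genotype, 1040.3 to 1483 CPM in TMEM106B-/-, 1934 to 3108 CPM in TDP-43Q331K and 2871 to 3247 CPM in WT, and 7 of 7 were lower in both the combined genotype and TMEM106B-/- than in WT. Meninges and choroid plexus markers summed to 46.8 to 72.8 CPM in the combined genotype, 35.2 to 89.5 CPM in TMEM106B-/-, 27.5 to 59.5 CPM in TDP-43Q331K and 17.0 to 41.0 CPM in WT. Of the 8 tested, 2 were higher than in WT in the combined genotype and 4 in TMEM106B-/-, with 0 lower. Among them was the water channel Aqp1 (3.05 ± 0.63, adjusted p = 0.0130 in the combined genotype and 2.54 ± 0.65, adjusted p = 0.0255 in TMEM106B-/-). Aqp1 had 46 counts in WT, where 2 libraries reached the filter's 0.283 CPM, against 5 each of the combined genotype and TMEM106B-/-. The choroid plexus gene Ttr went the other way without a call (-1.27 ± 0.91, adjusted p = 0.445 and -1.60 ± 0.94, adjusted p = 0.378). Endothelial and mural markers summed to 289 to 325 CPM in the combined genotype, 277 to 344 CPM in TMEM106B-/-, 256 to 304 CPM in TDP-43Q331K and 265 to 278 CPM in WT. Macrophage markers summed to 118 to 139 CPM in the combined genotype, 115 to 139.7 CPM in TMEM106B-/-, 109 to 124 CPM in TDP-43Q331K and 114 to 118 CPM in WT. Of the 6 tested, 3 were higher than in WT in both (Adgre1 by 0.48 and 0.46, Cd68 by 0.44 and 0.39 and Lyz2 by 0.66 and 0.94, combined genotype and then TMEM106B-/-). Of 7 microglial markers 1, Tmem119, was called higher in both (0.32 and 0.36). The 7 had medians of 0.06 and 0.13 and lowest values of -0.16 and -0.09. Of 7 astrocyte markers 2 were called higher in the combined genotype and 1 in TMEM106B-/-, with the transporter Slc1a3 in both (0.21 and 0.23). Their lowest values were -0.06 and -0.02. The part of these markers in the results for Angptl4, Lcat, Pltp and Lsr was not tested.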

How the data were processed

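RNA was sequenced from liver (16 libraries) and cortex (21 libraries) of mice aged 10 months. Per the labels' protocols, Trizol was used for total RNA and a directional kit for the libraries. Trim Galore, cutadapt, FastQC and the builds GRCm38 and mm10 are named in the submitters' processing notes. Not given in the sources used here were the aligner, the counting program and its strand setting. The authors deposited raw counts per gene, as whole numbers in a table for each tissue. In cortex 1 column matched no sample and was not used. Library totals were 50.5 to 74.1 M counts in liver and 28.8 to 46.3 M in cortex. All 55536 identifiers matched GENCODE M21, from which symbols, coordinates and exon lengths (for TPM) came.

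Liver and cortex were fitted apart, each with all 4 genotypes, in R 4.3.3 with edgeR 4.0.16: filterByExpr (minimum count 10, minimum total 15) left 16710 genes in liver and 21248 in cortex, TMM scaling, and the robust quasi-likelihood test, two-sided, with 12 and 17 residual degrees of freedom. P-values were adjusted by Benjamini-Hochberg over all genes of a comparison, and an adjusted p under 0.05 was called. Errors on log2 fold changes are SE, recovered from the test statistic, and those on CPM or TPM are SD. Comparisons were 5 contrasts and the interaction per tissue. The members and lists were chosen with earlier results of these data known. Values per library are given for members called in a tissue and for the member of highest WT TPM of each of 10 steps. In comparisons with WT, up to 4 called genes are named per pathway list, chosen by smallest p. In the other comparisons only some are named, so a list gene left unnamed there may have been called. An example is Gpat3 in liver of the combined genotype against TDP-43Q331K (2.98 ± 0.25, adjusted p = 3.82e-06 with edgeR). Members close to the threshold and those set beside them were named after their values were seen. The fit was tested on simulated data for the combined genotype against WT, with 200 genes changed. It recovered 12% of 1.5-fold and 80% of 3-fold changes over 16710 liver genes, and 58% and 94% over 21248 cortex genes. In the data 1176 liver and 1038 cortex genes were called in this comparison, so recovery in the data can differ. Promoter sequences are RefSeq's on GRCm38.p6.

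Alternatives were DESeq2 1.42.0, RLE size factors, a fit without the filter, a fit restricted to the compared groups, the replicate number as a block, each library left out in turn and, chosen after seeing the data, leaving out the 3 high acute phase livers, a set of 4 cortices carried over from earlier work with no fixed rule, or the cortex of each genotype farthest from its group median in summed oligodendrocyte or meninges markers.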

Additional observations from a re-analysis of the deposited data

Results flagged for a closer look

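Within 276 groups of 4 to 6 libraries (a member in 1 genotype of 1 tissue), 23 had a highest or lowest library far from its nearest neighbour, measured as the gap over the whole range of the group (Dixon's test at its 95% level). Chance flags about 1 group in 20. None of these was weighed for a cause.

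In livers of the combined genotype, replicate 2 was far above the others for Pnpla5 (14.1 CPM) and replicate 4 for Lipe (33.7 CPM), while replicate 1, a high acute phase liver, was far below for Dgat1 (22.5 CPM) and Mgll (439 CPM). In TMEM106B-/- livers, replicate 2 was high for Gpat4 (179 CPM), and replicate 4, a high acute phase liver, was low for Cideb (224 CPM) and high for Abhd5 (39.4 CPM). In TDP-43Q331K livers, replicate 1 was high for Pnpla2 (109 CPM) and low for Angptl8 (60.4 CPM), and replicate 3 was high for Lpin3 (11.4 CPM) and Mogat2 (1.26 CPM) and low for Gpat4 (113 CPM). In WT livers, replicate 1 was high for Hsd17b11 (139 CPM), replicate 2, a high acute phase liver, for Lpin2 (774 CPM), and replicate 4 for Cideb (317 CPM).

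In cortex of the combined genotype, replicate 1 was low for Angptl4 (0.926 CPM), the member called there, and high for Mttp (11.7 CPM). In TMEM106B-/- cortex, replicate 5, the farthest from its group in meninges markers, was low for Dgat2 (21.1 CPM) and Mttp (8.29 CPM) and high for Fitm2 (31.3 CPM). In TDP-43Q331K cortex, replicate 3 was low for Gpat4 (56.0 CPM). In WT cortex, replicate 1, the farthest from its group in oligodendrocyte and meninges markers, was low for Plin2 (2.13 CPM), and replicate 5 was high for Agpat2 (1.29 CPM).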

How the results depend on the processing

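The 14 calls of members were recomputed under 329 alternatives in all, of which 273 kept the call, 56 lost it and 0 turned its direction. Most alternatives leave out 1 library and share nearly all data with the main fit, so this tally is no independent test of the calls. It includes the calls of Pnpla5, which entered the liver test through the mutant genotypes. DESeq2 called 2 members for TMEM106B-/- against WT, 1 for TDP-43Q331K against WT (Pnpla5), 10 for the combined genotype against TDP-43Q331K, 1 for it against TMEM106B-/- and 1 in the interaction (Apoa4 in both) in liver, and 2 for the combined genotype against WT and 2 against TDP-43Q331K in cortex. The replicate block called 1 for the combined genotype against TMEM106B-/- in liver and 0 for it against TDP-43Q331K in cortex, as did a fit of only the compared groups in the same cortex comparison (0). Without the high acute phase livers or the carried-over set of cortices, chosen after seeing the data, the counts were 1 for the combined genotype against TMEM106B-/- in liver, 0 for TMEM106B-/- against WT in cortex and 2 for the combined genotype against WT in cortex (Angptl4 higher and Dgat2 lower). Without the cortex of each genotype farthest from its group median in oligodendrocyte or meninges markers, also chosen after seeing the data, the count was 0 for TMEM106B-/- against WT in both, and in the combined genotype against TDP-43Q331K 0 for meninges markers and 1 for oligodendrocyte markers (Plin3 lower, with Angptl4 lost). In the other comparisons these alternatives, RLE size factors and no filter left the counts within 1.5 times. The block also lost 2 single calls, Pnpla3 in liver of the combined genotype against WT (adjusted p = 0.119) and Angptl4 in its cortex against TDP-43Q331K (adjusted p = 0.0894). The cause of these shifts was not tested.

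Leaving out 1 library at a time gave 3 to 8 calls for the combined genotype against WT in liver (3 without its replicate 3, 8 without replicate 4 of TMEM106B-/-), 2 to 5 against TDP-43Q331K (2 without its replicate 2 or replicate 4 of TDP-43Q331K) and 0 to 1 against TMEM106B-/- (1 without its replicate 1 or replicate 2 of WT). It gave 1 in every case for TMEM106B-/- against WT, 0 to 1 for TDP-43Q331K against WT (1 without replicate 2 of the combined genotype) and 0 in the interaction. In cortex it gave 1 to 2 for the combined genotype against WT (2 without its replicate 5 or replicate 5 of TMEM106B-/-), 0 to 2 against TDP-43Q331K (2 without its replicate 5, replicate 5 of TMEM106B-/- or replicate 2 of TDP-43Q331K), 0 to 1 for TMEM106B-/- against WT and 0 in the other 3 comparisons.

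Deviations of same-numbered libraries correlated above 0.1 in 4 of 24 pairs in liver and 2 of 30 in cortex. Of 16 livers 6, and of 21 cortices 1, correlated best with their own number. Same-numbered WT and TDP-43Q331K livers correlated at 0.23, 0.0931, 0.278 and 0.0979 (replicates 1 to 4), while the lowest same-numbered liver pair was at -0.207. Whether replicate numbers pair the livers was therefore not settled. The main fit does not use them, and the block is given only here. Counts were few for Angptl4 in cortex and few or absent for the 9 untested members there. Of these, Angptl8 and Apoc2 had 0 counts and Apoa4 1 count over 746 M.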

Other observations

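Some members varied together across libraries in ways the called genes do not show. In 16 livers the closest pair by Pearson correlation of log2 CPM were Lpin3 and Mogat2 (0.87), both highest in replicate 3 of TDP-43Q331K. Mgll was most like Agpat2 (0.81), Agpat3 most like Cideb (0.74), and Plin3 and Plin2 were both close to Apoa4 (0.71 and 0.70). These are descriptions of libraries that share genotypes. Of the neighbouring members, Pnpla5 and Pnpla3 had a correlation of 0.81 at a distance of 44.7 kb, while Apoc3 lay 5.06 kb from Apoa4 and showed no call where Apoa4 rose.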
